A study of Mus musculus with 16 samples.

Results

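The genes described here are 8 that mark wounded, regenerating or fetal-like gut epithelium: Plet1, Clca4a, Clca4b, Ly6a, Anxa1, Anxa8, Clu and Tmem45b. They were taken by symbol from a colon RNA-seq table of 39328 genes, and all 8 were found there. The mice were adult wild-type ICR animals, an outbred stock, and no mutation or transgene is named for any group. DSS_CS mice were born by cesarean section (CS) and drank water with 3% dextran sulfate sodium (DSS), a polymer toxic to the lining of the colon, over 8 days. DSS_VD mice were born by vaginal delivery (VD) and drank the same DSS water. CON_CS mice were born by cesarean section and CON_VD mice by vaginal delivery, and both drank normal water. Each group has 4 libraries of whole colon RNA, 16 in all. The labels name neither sex nor litter, nor whether a library stands for 1 mouse or a pool, so spreads and p-values here are those between libraries and may in part be technical. The 8 genes were picked with results of these same libraries known, so their values are given as a description, with whether each passed the threshold of the fit over all genes and with no p-value of their own.

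When the colon lining is lost, epithelial cells at the wound edge flatten, move over the bare surface and for a time switch off their adult programme. In mouse colon this state is known for genes that are otherwise seen in fetal gut, among them Ly6a (also called Sca-1), Anxa1 and Clu, and it is tied to the co-activators YAP and TAZ and to signals from the matrix and from immune cells. Plet1 is a surface protein of such wound epithelium, and Clca4a and Clca4b are made by surface epithelium of the mouse colon.

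All 8 genes are placed here on GRCm38, with GENCODE M21. Plet1 lies at chr9:50494525-50505482 on the plus strand and Tmem45b at chr9:31426196-31464462 on the minus strand. Ly6a lies at chr15:74994877-74998031 and Anxa1 at chr19:20373428-20390944, both on the minus strand. Anxa8 at chr14:34085981-34100571 and Clu at chr14:65968483-65981547 are both on the plus strand. Clca4a at chr3:144952480-144975045 and Clca4b at chr3:144910921-144932529 are neighbours on the minus strand, in a run of 8 Clca genes on chromosome 3 that also holds the pseudogene Clca4c-ps. Their coding sequences have 2775 bases each and are 96.0% identical, with the longest identical run at 168 bases, so reads from one copy may have been counted for the other. The 2 stretches below, coding bases 38 to 127 of the minus strand, show how close the copies are, with the 3 bases that differ in capitals.

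Clca4a: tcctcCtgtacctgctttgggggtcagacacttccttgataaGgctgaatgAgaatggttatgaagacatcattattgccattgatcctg

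Clca4b: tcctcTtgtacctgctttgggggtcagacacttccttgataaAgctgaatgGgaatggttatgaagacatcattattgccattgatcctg

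Promoter sequences from RefSeq (GRCm38.p6) were at hand for 4 of the 8 genes, and the 250 bases before the start of each are printed because all 4, Plet1, Anxa1, Clca4b and Anxa8, rose with DSS in both birth groups. Capitals mark matches to GGAATG (the TEAD motif, through which YAP and TAZ act), TGANTCA (the AP-1 motif of injury responses) or TATAAA (the TATA box), searched on both strands together with the STAT motif TTCNNNGAA. The Plet1 stretch is at chr9:50494275-50494524 and that of Anxa8 at chr14:34085729-34085978, both plus strand. Anxa1 is at chr19:20390672-20390921 and Clca4b at chr3:144932530-144932779, both minus strand.

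Plet1: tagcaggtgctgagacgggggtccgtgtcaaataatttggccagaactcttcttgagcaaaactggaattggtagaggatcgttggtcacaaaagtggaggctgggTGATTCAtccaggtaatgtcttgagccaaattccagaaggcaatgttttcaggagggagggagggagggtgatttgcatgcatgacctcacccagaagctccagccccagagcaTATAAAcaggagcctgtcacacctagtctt

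Anxa1: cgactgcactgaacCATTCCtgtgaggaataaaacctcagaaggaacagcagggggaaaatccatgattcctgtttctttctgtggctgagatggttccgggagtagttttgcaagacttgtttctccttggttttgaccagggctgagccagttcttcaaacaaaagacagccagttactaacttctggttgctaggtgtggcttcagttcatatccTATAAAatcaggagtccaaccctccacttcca

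Clca4b: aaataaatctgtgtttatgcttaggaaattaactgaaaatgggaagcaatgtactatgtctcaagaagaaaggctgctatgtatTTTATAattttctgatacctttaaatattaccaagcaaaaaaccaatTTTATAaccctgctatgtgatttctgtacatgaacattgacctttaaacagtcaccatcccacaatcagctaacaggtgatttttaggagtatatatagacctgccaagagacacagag

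Anxa8: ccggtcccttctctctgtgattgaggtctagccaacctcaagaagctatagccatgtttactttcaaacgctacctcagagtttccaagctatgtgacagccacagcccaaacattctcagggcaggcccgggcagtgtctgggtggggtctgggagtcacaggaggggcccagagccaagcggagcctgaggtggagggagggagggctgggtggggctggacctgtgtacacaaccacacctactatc

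The Plet1 promoter holds an AP-1 match from 144 to 138 bases before the start and a TATA match from 30 to 25. The Anxa1 promoter holds a reverse-strand TEAD match from 236 to 231 bases before the start and a TATA match from 32 to 27. The Clca4b promoter holds 2 reverse-strand TATA matches, at 166 and 119 bases before the start, and the Anxa8 promoter holds no match to the motifs. No match to the STAT motif is in the 4 windows. Of all 32851 mouse promoters in the table, 12.6% hold the TEAD letters, 6.75% the AP-1 letters, 7.02% the STAT letters and 12.4% the TATA letters, so these matches are common and serve as a description only.

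Values are FPKM, fragments scaled to gene length and to library depth, as the authors deposited them. FPKM sums per library ran from 280135 to 343423, and read depth is unknown. Libraries of 1 group correlated at 0.938 to 0.980 (Pearson, log2(FPKM + 1)), DSS_CS with DSS_VD libraries at 0.848 to 0.954, and CON_CS with CON_VD libraries at 0.939 to 0.968. The prostate gene Pbsn stood at 128 and 1355 FPKM in DSS_CS replicates 3 and 4 and at 185 FPKM in CON_CS replicate 1, against at most 0.526 FPKM in the other 13 libraries, and calls of named genes that end without those 3 libraries are given as such. Each fit leaves out those of the 3 that it holds: DSS_CS replicates 3 and 4 between the DSS groups, and CON_CS replicate 1 on water. Levels of epithelial genes also varied between libraries. The mean log2(FPKM + 1) of 10 pan-epithelial genes was 6.74 in DSS_CS and 8.06 in DSS_VD (difference -1.33, exact two-sided permutation p = 0.0571). The DSS groups overlapped, with DSS_CS replicate 1 at 7.65 and DSS_VD replicate 3 at 7.64. The mean was 8.70 in CON_CS and 8.66 in CON_VD (difference 0.04, exact two-sided permutation p = 0.457). Epcam, the epithelial adhesion molecule, was at 312, 91.9, 134 and 169 FPKM in DSS_CS and at 442, 716, 317 and 393 FPKM in DSS_VD, against 618 to 730 FPKM in CON_CS and 618 to 756 FPKM in CON_VD. In bulk tissue, fewer cells of a type and less RNA per cell cannot be told apart.

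Under DSS, Plet1, Clca4b, Anxa1, Anxa8 and Clu rose in both birth groups, Clca4a and Ly6a rose in VD mice, and Tmem45b fell in CS mice. Between the DSS groups, Clca4a, Clca4b, Ly6a and Tmem45b were lower in DSS_CS than in DSS_VD. These calls come from limma on log2(FPKM + 1), at an adjusted p under 0.05 over all tested genes, where a gene needed at least 1 FPKM in at least 4 libraries of the fit. A gene under 1 FPKM throughout 1 group passes this filter only through the other group. The direction of such a gene is set in advance. Among genes named below, these include Spp1, Mmp10, Sprr2h, Fpr1 and Fpr2 on water, Ascl2 under DSS and Krt14 in CON_VD. The shares of all tested genes include such genes too. In DSS_VD against CON_VD, 7 of 8 genes rose and none fell, where 40.9% of the 13933 tested genes were called and 24% were called higher. In DSS_CS against CON_CS, 5 rose and 1 fell, where 60.3% of 14372 genes were called, 34.4% higher and 25.9% lower. In DSS_CS against DSS_VD, 4 were lower and none higher, where 13.4% of 14313 genes were called and 5.54% were called lower. In CON_CS against CON_VD, 1 of the 7 tested genes was called, as higher, where 0.407% of 13275 genes were called and 0.181% were called higher. Since the genes were picked from these contrasts, nothing is read from these shares. Counts of called genes in the lists below are to be set against the same shares.

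**Figure D1:**
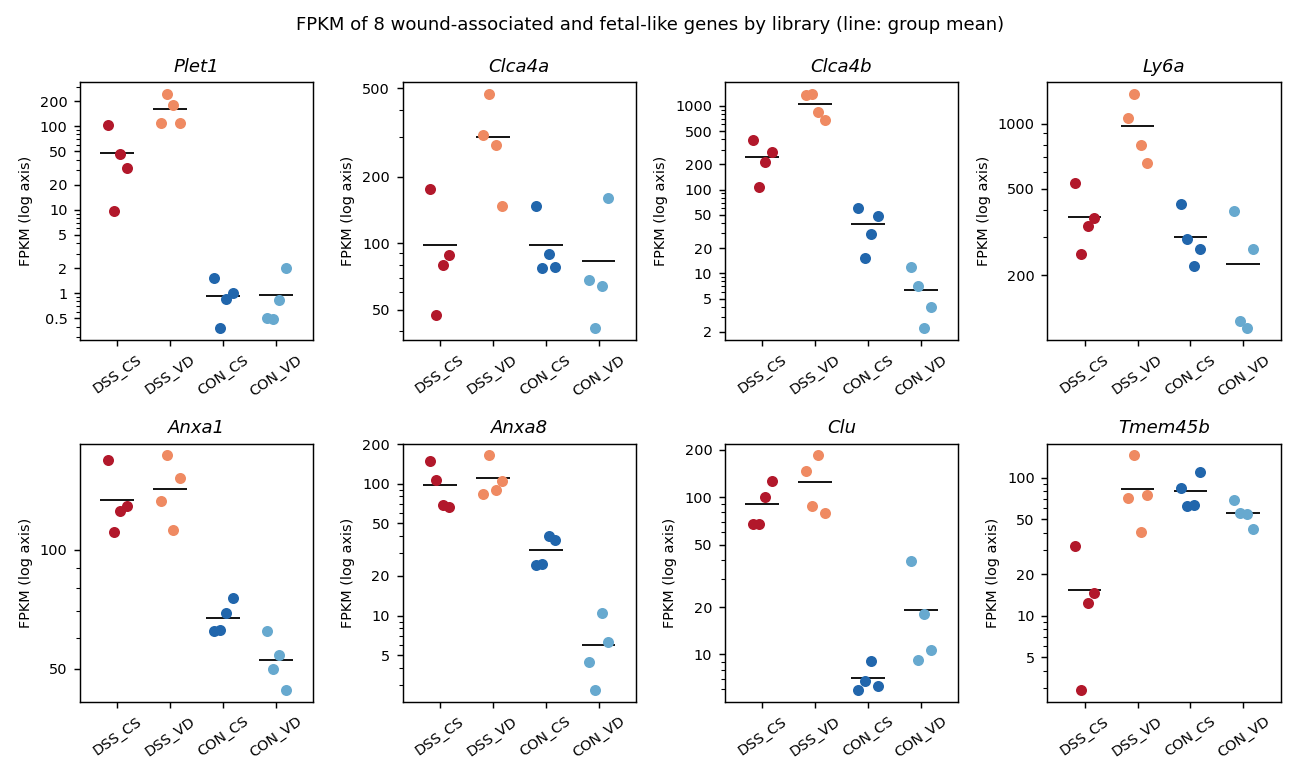
FPKM of the 8 genes in each of the 16 libraries, on log axes, with points for libraries and lines for group means. Plet1, Clca4b, Anxa1, Anxa8 and Clu stand higher in every DSS library than in every water library of the same birth mode, while Tmem45b is lowest in DSS_CS, at 2.90 to 31.8 FPKM.

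Plet1, a cell-surface protein first known from mouse placenta and found on migrating wound epithelium in mouse colon, was nearly silent on water. It stood at 103, 9.80, 46.0 and 31.7 FPKM in DSS_CS, at 108, 244, 181 and 110 FPKM in DSS_VD, at 1.52, 0.380, 0.847 and 1.02 FPKM in CON_CS, and at 0.514, 0.496, 0.836 and 2.02 FPKM in CON_VD. Every DSS library was above every water library, and every DSS_CS library was below every DSS_VD library, the closest being DSS_CS replicate 1. Group means were 47.5 ± 39.6 FPKM in DSS_CS and 161 ± 64.7 FPKM in DSS_VD, against 0.942 ± 0.471 FPKM in CON_CS and 0.967 ± 0.720 FPKM in CON_VD (SD, n = 4 each). Plet1 rose by 4.25 ± 0.59 in CS mice and by 6.34 ± 0.31 in VD mice (log2 difference ± SE). Mean FPKM was 50.5 times as high in DSS_CS as in CON_CS and 166 times as high in DSS_VD as in CON_VD. In DSS_CS against DSS_VD the log2 difference was -2.07 ± 0.62, which did not pass the threshold, and it passed without DSS_CS replicate 1. On water, Plet1 was under the filter and was not tested. An antisense gene, Plet1os, overlaps Plet1, and antisense genes also overlap Clca4a, Anxa1, Anxa8 and Tmem45b. Strandedness of the libraries is not given here, so reads of the 2 strands cannot be told apart.

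Ly6a, a lipid-anchored surface protein that marks fetal-like epithelium in mouse and also blood stem cells and vessels, was abundant in every group. Its values were 531, 251, 336 and 368 FPKM in DSS_CS, 1060, 1368, 799 and 655 FPKM in DSS_VD, 424, 294, 221 and 263 FPKM in CON_CS, and 397, 123, 114 and 263 FPKM in CON_VD. All 4 DSS_VD libraries were above all others, while DSS_CS, CON_CS and CON_VD overlapped. Ly6a rose in DSS_VD against CON_VD by 2.25 ± 0.42 on the log2 scale. In DSS_CS against CON_CS the difference was 0.30 ± 0.26, short of the threshold. Relative to the pan-epithelial mean that difference was 2.26 and passed, on a scale that raises every gene in this comparison. Ly6a was lower in DSS_CS than in DSS_VD by a log2 difference of -1.38 ± 0.29, with means of 371 ± 117 and 971 ± 313 FPKM (SD, n = 4 each).

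Ly6a is also induced by interferon in mouse. Of 17 interferon-stimulated genes, 3 rose and 0 fell in DSS_CS against CON_CS, where 34.4% of all tested genes rose. In DSS_VD against CON_VD 10 rose and 0 fell, where 24% of all tested genes rose. None was higher and 2 were lower in DSS_CS than in DSS_VD, where 5.54% of all tested genes were lower. The mean log2(FPKM + 1) of the 17 genes ran from 3.27 to 4.12 in DSS_CS, from 3.79 to 5.30 in DSS_VD, from 2.47 to 3.88 in CON_CS and from 1.80 to 4.39 in CON_VD. CON_VD replicate 1, with the highest Ly6a of its group, was also the highest of its group in this list, at 4.39 against 1.80 to 2.83 in the other 3. Vessel markers moved too: 10 endothelial genes summed to 103 to 136 FPKM in DSS_CS and 47.0 to 92.6 FPKM in DSS_VD, against 25.9 to 32.5 FPKM in CON_CS and 24.3 to 29.2 FPKM in CON_VD. The part of either in the Ly6a values was not tested.

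Other Ly6 genes share sequence with Ly6a. Of the 8 tested members of the family, Ly6a included, 4 rose and 1 fell in DSS_CS against CON_CS. In DSS_VD against CON_VD 7 rose and 1 fell. The shares of all tested genes that rose were 34.4% in CS mice and 24% in VD mice. Coding identity with Ly6a was 86.3% for Ly6i, 84.6% for Ly6f, 83.5% for Ly6c2 and 83.1% for Ly6g, with identical runs of up to 80 bases, so shared reads could be split between them. Ly6c1, a surface protein of monocytes and vessels, averaged 83.3 ± 16.2 FPKM in DSS_CS and 164 ± 49.3 FPKM in DSS_VD, against 22.6 ± 6.48 FPKM in CON_CS and 17.4 ± 6.64 FPKM in CON_VD (SD, n = 4 each). Ly6g averaged 98.4 ± 40.6 FPKM in DSS_CS and 380 ± 156 FPKM in DSS_VD, against 112 ± 18.2 FPKM in CON_CS and 103 ± 50.4 FPKM in CON_VD (SD, n = 4 each). Ly6g, a neutrophil marker in mouse, was thus lower in DSS_CS than in DSS_VD (log2 difference -1.94 ± 0.35, limma, adjusted p = 0.0313, and -1.91 ± 0.49, adjusted p = 0.116, without the 3 libraries with Pbsn), while the calprotectin gene S100a8 averaged 272 ± 67.9 FPKM in DSS_CS and 89.7 ± 57.5 FPKM in DSS_VD.

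Clca4a and Clca4b belong to a family of secreted proteins, named for their effect on calcium-activated chloride currents, that cleave themselves. Clca4b stood at 387, 106, 211 and 280 FPKM in DSS_CS, at 1345, 1382, 833 and 682 FPKM in DSS_VD, at 61.1, 15.4, 29.2 and 47.9 FPKM in CON_CS, and at 11.9, 7.01, 2.20 and 3.97 FPKM in CON_VD. No pair of neighbouring groups overlapped: DSS_VD was highest, then DSS_CS, then CON_CS, then CON_VD. Clca4b rose by 2.67 ± 0.49 in CS mice and by 7.32 ± 0.42 in VD mice on the log2 scale. Its mean in DSS_VD, 1061 ± 356 FPKM against 6.28 ± 4.26 FPKM in CON_VD, ranked 20 among all genes of that group (SD, n = 4 each). Between the DSS groups the log2 difference was -2.18 ± 0.41, lower in DSS_CS. Between the water groups it ran the other way, 2.46 ± 0.50, which missed the threshold in the main fit and passed it without CON_CS replicate 2.

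Clca4a was well expressed on water already. Its values were 176, 47.2, 79.9 and 88.3 FPKM in DSS_CS, 307, 471, 278 and 148 FPKM in DSS_VD, 147, 77.3, 89.4 and 78.2 FPKM in CON_CS, and 68.5, 41.2, 64.2 and 160 FPKM in CON_VD. The groups overlapped in every pair except DSS_VD against CON_CS, where all 4 DSS_VD libraries were higher. Clca4a rose in VD mice by 1.90 ± 0.44 on the log2 scale. In CS mice the difference was -0.11 ± 0.37, short of the threshold, with means of 97.9 ± 55.1 FPKM in DSS_CS and 97.9 ± 33.0 FPKM in CON_CS (SD, n = 4 each). It was lower in DSS_CS than in DSS_VD by a log2 difference of -1.65 ± 0.44, although DSS_CS replicate 1 was above DSS_VD replicate 4.

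The balance of the copies shifted with DSS. Clca4b was 2.20 to 3.18 times as high as Clca4a in DSS_CS libraries and 2.93 to 4.61 times in DSS_VD libraries, against 0.199 to 0.612 times in CON_CS and 0.0248 to 0.174 times in CON_VD. Clca4b exceeded Clca4a in all 8 DSS libraries and in none of the 8 water libraries, and the CON_CS ratios were all above the CON_VD ratios. The pseudogene Clca4c-ps, whose transcript is 95.3% identical to that of Clca4a and 94.5% to that of Clca4b, averaged 7.25 ± 4.89 FPKM in DSS_CS, 27.4 ± 12.0 FPKM in DSS_VD, 4.88 ± 1.55 FPKM in CON_CS and 2.74 ± 2.14 FPKM in CON_VD (SD, n = 4 each). It tracked Clca4a at a Pearson r of 0.952 over the 16 libraries, and how far the 3 copies share reads was not tested. Over all tested genes, 34.4% rose in CS mice and 24% in VD mice. Of the 6 tested Clca genes, Clca4a and Clca4b included, 2 rose and 1 fell in CS mice. In VD mice 5 rose and 1 fell. The one that fell in both was Clca1, a goblet cell mucus protein, at 114 ± 32.3 FPKM in DSS_CS and 270 ± 172 FPKM in DSS_VD, against 690 ± 138 FPKM in CON_CS and 1845 ± 917 FPKM in CON_VD (SD, n = 4 each).

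**Figure D2:**
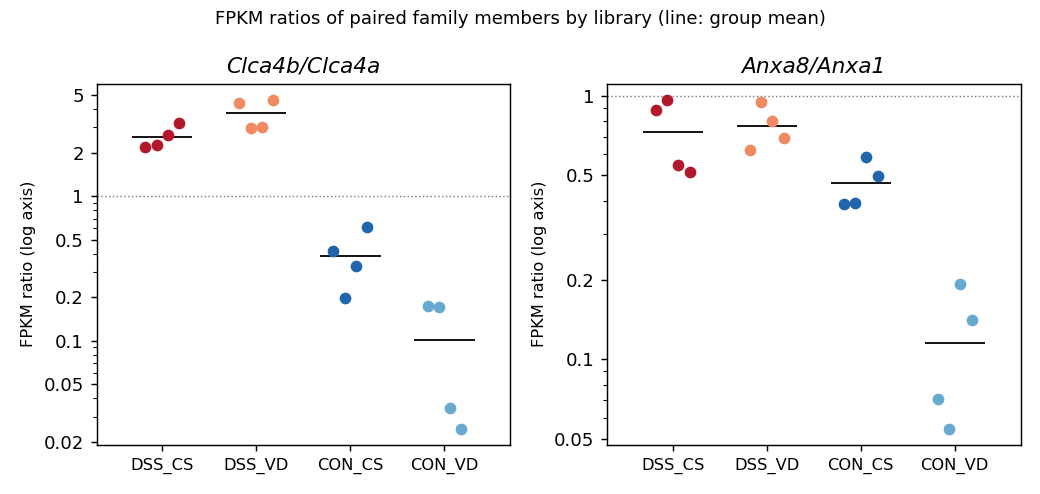
Ratio of Clca4b to Clca4a FPKM (left) and of Anxa8 to Anxa1 FPKM (right) in each library, on log axes, with lines for group means and a dotted line at 1. The Clca ratio is above 1 in all 8 DSS libraries and below 1 in all 8 water libraries, and both ratios are lowest in CON_VD.

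Annexins bind membrane phospholipids when calcium rises. Anxa1, known for promoting wound closure and for damping inflammation through formyl peptide receptors, stood at 169, 111, 126 and 129 FPKM in DSS_CS, at 133, 173, 112 and 152 FPKM in DSS_VD, at 62.2, 62.8, 69.2 and 75.5 FPKM in CON_CS, and at 62.4, 50.0, 54.3 and 44.3 FPKM in CON_VD. All DSS libraries were above all water libraries, and the birth groups overlapped under DSS and, by 1 library, on water. Anxa1 rose by 0.96 ± 0.14 in CS mice and by 1.41 ± 0.16 in VD mice on the log2 scale. In DSS_CS against DSS_VD the difference was -0.09 ± 0.18 and did not pass, with a spread within each group of at most 1.54 times from lowest to highest.

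The receptors of Anxa1 rose in both birth groups and were higher in DSS_CS than in DSS_VD. Both were under 1 FPKM in every water library, so the filter set the direction of their rise. Fpr2 averaged 18.1 ± 3.82 FPKM in DSS_CS and 7.68 ± 3.41 FPKM in DSS_VD, against 0.225 ± 0.146 FPKM in CON_CS and 0.364 ± 0.126 FPKM in CON_VD (SD, n = 4 each). Fpr1 averaged 12.8 ± 4.17 FPKM in DSS_CS and 3.45 ± 1.51 FPKM in DSS_VD, against 0.0633 ± 0.0480 FPKM in CON_CS and 0.0899 ± 0.115 FPKM in CON_VD (SD, n = 4 each). The DSS_CS minus DSS_VD log2 difference was 1.20 ± 0.28 for Fpr2 (limma, adjusted p = 0.0360) and 1.66 ± 0.30 for Fpr1 (adjusted p = 0.0313). Without the 3 libraries with Pbsn it was 1.004 ± 0.37 for Fpr2 (adjusted p = 0.181) and 1.34 ± 0.35 for Fpr1 (adjusted p = 0.118). Neutrophils and macrophages also carry Anxa1 and these receptors. The 10 neutrophil markers summed to 800 to 1399 FPKM in DSS_CS and 514 to 1011 FPKM in DSS_VD, against 89.5 to 134 FPKM in CON_CS and 73.5 to 180 FPKM in CON_VD. Nearly all of the water level was Ly6g, the one neutrophil marker found lower in DSS_CS: without it, a split made after its values were seen, the other 9 summed to 741 to 1318 FPKM in DSS_CS and 127 to 650.1 FPKM in DSS_VD, against 0.458 to 1.08 FPKM in CON_CS and 0.308 to 1.36 FPKM in CON_VD. The 10 macrophage markers summed to 810 to 1183 FPKM in DSS_CS and 649 to 928 FPKM in DSS_VD, against 158 to 204 FPKM in CON_CS and 158 to 259 FPKM in CON_VD. Their part in the Anxa1 values was not tested.

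Anxa8, an annexin of squamous and other lining epithelia, stood at 149, 107, 68.7 and 66.5 FPKM in DSS_CS, at 82.9, 164, 89.5 and 105 FPKM in DSS_VD, at 24.2, 24.6, 40.4 and 37.5 FPKM in CON_CS, and at 4.43, 2.73, 10.5 and 6.26 FPKM in CON_VD. The DSS groups overlapped and lay above both water groups, and every CON_CS library was above every CON_VD library. Anxa8 was the one gene of the 8 called on water, higher in CON_CS by a log2 difference of 2.31 ± 0.33 (31.7 ± 8.49 FPKM in CON_CS, 5.97 ± 3.32 FPKM in CON_VD, SD, n = 4 each). It rose by 1.55 ± 0.29 in CS mice and by 4.07 ± 0.34 in VD mice. Under DSS the CS minus VD difference was -0.20 ± 0.31 and did not pass. Anxa8 was 0.516 to 0.963 times Anxa1 in DSS_CS and 0.623 to 0.947 times in DSS_VD, against 0.389 to 0.584 times in CON_CS and 0.0546 to 0.193 times in CON_VD.

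Squamous markers, which would mark anal or skin-type epithelium, were low. The 10 of them summed to 7.70 to 24.3 FPKM in DSS_CS and 8.87 to 20.2 FPKM in DSS_VD, against 5.37 to 7.41 FPKM in CON_CS and 3.51 to 5.08 FPKM in CON_VD. The squamous regulator Trp63 was at most 0.0793 FPKM in every library. Krt14, a keratin of basal cells, was higher in CON_CS than in CON_VD like Anxa8, at 2.47 ± 0.570 and 0.740 ± 0.226 FPKM (SD, n = 4 each; log2 difference 0.99 ± 0.15, limma, adjusted p = 0.0363). The part of squamous cells in the Anxa8 difference was not tested. Among 12 annexin genes, Anxa1 and Anxa8 included, 10 were tested on each side of the DSS contrasts. In CS mice 4 rose and 4 fell, where 34.4% of all tested genes rose and 25.9% fell. In VD mice 6 rose and 2 fell, where 40.9% of all tested genes were called in either direction and 24% as higher. Anxa5 rose in both, with 117 ± 21.1 FPKM in DSS_CS and 65.4 ± 11.8 FPKM in DSS_VD, against 31.0 ± 0.862 FPKM in CON_CS and 29.8 ± 3.06 FPKM in CON_VD (SD, n = 4 each).

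Clu, a secreted chaperone that marks the revival stem cells of damaged mouse gut, stood at 68.0, 67.9, 101 and 127 FPKM in DSS_CS, at 146, 87.9, 184 and 79.6 FPKM in DSS_VD, at 5.95, 6.75, 9.14 and 6.31 FPKM in CON_CS, and at 39.1, 9.22, 18.2 and 10.7 FPKM in CON_VD. All DSS libraries were above all water libraries, the DSS groups overlapped, and every CON_CS library was below every CON_VD library. Clu rose by 3.48 ± 0.22 in CS mice and by 2.76 ± 0.44 in VD mice on the log2 scale. The CS minus VD difference was -0.41 ± 0.32 under DSS and -1.13 ± 0.38 on water, and neither passed. It was the only one of the 8 genes whose fitted DSS response was greater in CS than in VD mice, by 0.72 ± 0.53, which did not pass. Relative to the pan-epithelial mean that difference was 2.08, which passed, on a scale that raises the difference of responses of every gene.

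Follicular dendritic cells of mouse lymphoid tissue also make Clu. A set of 10 B cell follicle markers, chosen after the Clu values were seen and so given with no test, summed to 182 to 407 FPKM in DSS_CS and 201 to 506 FPKM in DSS_VD, against 4.78 to 7.84 FPKM in CON_CS. In CON_VD they summed to 57.2 FPKM in replicate 1, where Clu was highest of the water libraries, and to 4.24 to 8.85 FPKM in the other 3. The 3 genes most like Clu over the 16 libraries were Lax1 (Pearson r of 0.984), Ly6d (0.979) and Cd79a (0.978), the last a part of the B cell receptor. Cd79a was at 41.5, 47.0, 68.9 and 84.6 FPKM in DSS_CS and at 95.4, 52.0, 102 and 65.1 FPKM in DSS_VD. The part of follicles in the Clu values was not tested.

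Tmem45b, a multi-pass membrane protein of epithelial cells, went against the name of the group. Its values were 31.8, 2.90, 12.3 and 14.6 FPKM in DSS_CS, 71.9, 145, 40.4 and 74.7 FPKM in DSS_VD, 83.7, 62.9, 63.6 and 110 FPKM in CON_CS, and 68.6, 55.4, 54.6 and 42.3 FPKM in CON_VD. Every DSS_CS library was below every other library, while DSS_VD overlapped both water groups. In CS mice it fell by 2.63 on the log2 scale (SE 0.56), a call that ended without the 3 libraries with Pbsn. Relative to the pan-epithelial mean that difference was -0.67 and did not pass. In VD mice the DSS difference was 0.46 ± 0.34 and did not pass. DSS_CS was lower than DSS_VD by a log2 difference of -2.58 ± 0.62, with means of 15.4 ± 12.0 and 83.1 ± 44.4 FPKM (SD, n = 4 each). Its levels followed those of epithelial genes: Pearson r with the pan-epithelial mean was 0.905 over the 16 libraries and 0.919 after group means were taken out, and among its nearest genes were Cdh17 (0.972), an adhesion protein of intestinal epithelium, and Tmem54 (0.970).

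**Figure D3:**
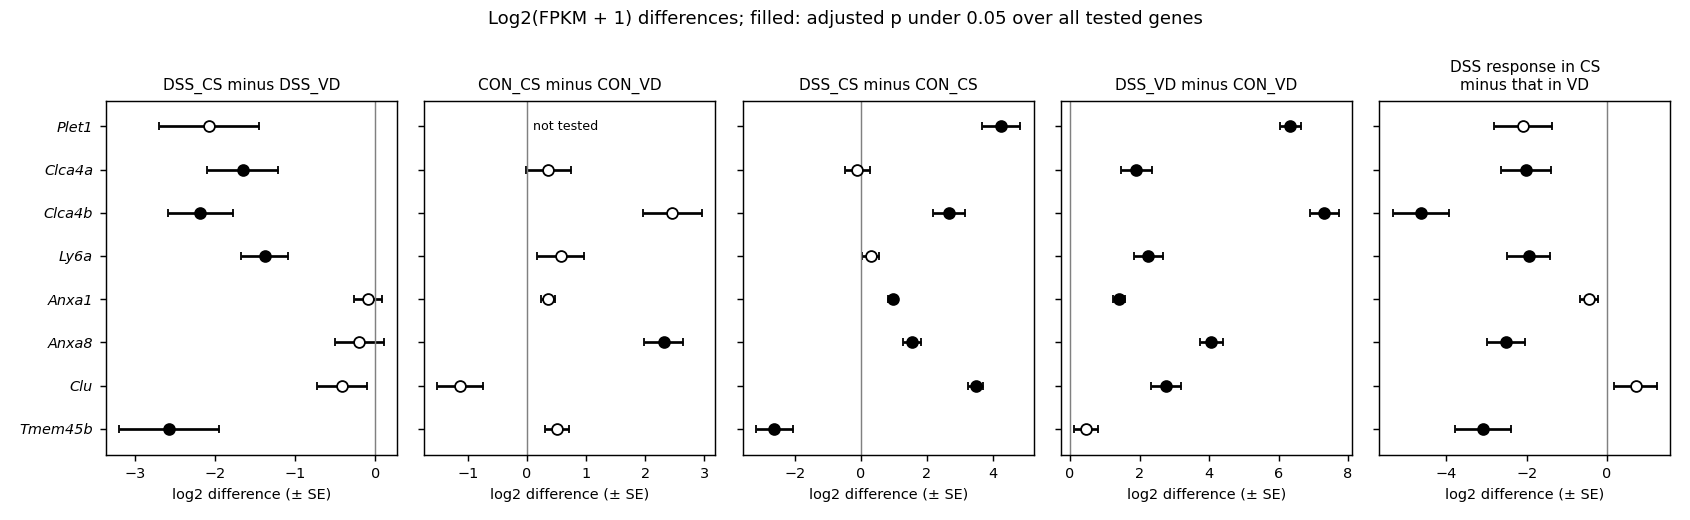
Log2 differences of the 8 genes in the 5 comparisons, with bars for 1 SE and filled points for genes at an adjusted p under 0.05 over all tested genes. From left to right the panels give DSS_CS minus DSS_VD, CON_CS minus CON_VD, DSS_CS minus CON_CS, DSS_VD minus CON_VD and the DSS response in CS mice minus that in VD mice. Under DSS all 8 points lie below 0 for CS against VD, from -2.58 for Tmem45b to -0.09 for Anxa1.

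Birth mode under DSS divided the genes. Clca4b, Ly6a, Tmem45b and Plet1 had every DSS_CS library below every DSS_VD library, as 7.18% of the tested genes did, and Plet1 among them missed the threshold. Clca4a was called with overlap, and Anxa1, Anxa8 and Clu overlapped. The median log2 difference of the 8 was -1.52, against 0.06 over all tested genes. The 4 calls depended on single libraries, as did the calls of all genes. Leaving out DSS_VD replicate 1, DSS_VD replicate 2, DSS_CS replicate 2 or DSS_CS replicate 3 left 0 of the 8 genes called, and leaving out DSS_CS replicate 4 left 1. The calls over all genes in those fits numbered 0, 51, 57, 1 and 639 in the same order. Without the 3 libraries with Pbsn, 0 of the 8 and 6 genes in all were called. The 4 log2 differences stayed negative in each of these fits.

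On water the order of CS and VD was mixed. Clca4b and Anxa8 were higher in every CON_CS library than in every CON_VD library, and Clu was lower in every one, where 6.31% of the tested genes were higher and 4.41% lower without overlap. The median log2 difference of the 7 tested genes was 0.51, against 0.03 over all tested genes. The Anxa8 call was lost without CON_VD replicate 1 or 3 and without CON_CS replicate 1, 3 or 4. CON_CS replicate 1 is the only library with Pbsn in this comparison.

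The DSS response, taken as the DSS minus water difference, was lower in CS than in VD mice for 5 of the 8 genes at the threshold, where 13.2% of 15233 genes passed in either direction and 6.55% passed below 0. For Clca4b and Anxa8 this was a smaller rise in CS mice, and for Tmem45b a fall in CS mice beside a difference short of the threshold in VD mice. The differences of responses were -4.64 ± 0.70 for Clca4b, -3.09 ± 0.70 for Tmem45b, -2.52 ± 0.48 for Anxa8, -2.01 ± 0.63 for Clca4a and -1.95 ± 0.53 for Ly6a. They were -2.09 ± 0.72 for Plet1, -0.45 ± 0.22 for Anxa1 and 0.72 ± 0.53 for Clu, which did not pass. For Clca4b and Anxa8 the higher CON_CS level enters this value as well as the DSS level, and for Anxa8 the DSS groups overlapped. Clca4b and Anxa8 passed in each setting tried, and Tmem45b was lost without the 3 libraries with Pbsn. Clca4a was lost in 20 of 23 settings, among them when any 1 of 13 of the 16 libraries was left out. Ly6a was lost in 9 of 23. These were the fit without a filter, the pan-epithelial scale, and the fit without the 3 libraries with Pbsn. The others left out DSS_CS replicate 2 or 3, DSS_VD replicate 2, CON_CS replicate 1, or CON_VD replicate 2 or 3. Relative to the pan-epithelial mean, Clca4b (-3.28), Tmem45b (-1.72) and Anxa8 (-1.15) still passed, and Clca4a (-0.65) and Ly6a (-0.59) did not. Anxa1 (0.92) and Clu (2.08) passed above 0 on this scale. The median difference of responses of the 10 pan-epithelial genes was itself -1.36, so the scale raises the value of every gene. What passed on it is in part set by the scale, and nothing is read from it.

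The pan-epithelial mean was lower on average in DSS_CS than in DSS_VD, with overlap. Each gene was therefore also set against the pan-epithelial mean of its own library, as the log2 level minus that mean. Clca4b ran from 0.72 to 1.31 in DSS_CS and from 1.42 to 2.50 in DSS_VD, and Tmem45b from -4.06 to -2.62 in DSS_CS and from -2.27 to -1.53 in DSS_VD. These 2 genes remained lower in every DSS_CS library, which 0.391% of the tested genes did. The difference of group means was -0.86 for Clca4b, which did not pass the threshold, and -1.25 for Tmem45b, which passed. Plet1, Clca4a, Ly6a and Clu overlapped on this scale, with differences of group means of -0.75 for Plet1, -0.33 for Clca4a, -0.05 for Ly6a and 0.91 for Clu.

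The annexins turned round on this scale. Anxa1 ran from -0.24 to 0.78 in DSS_CS and from -1.28 to -0.74 in DSS_VD. Anxa8 ran from -0.75 to 0.73 in DSS_CS and from -1.50 to -1.14 in DSS_VD. Both were higher in every DSS_CS library, as were 45.8% of the tested genes, so the pan-epithelial scale moved nearly the whole table upward in DSS_CS. Genes expressed outside the epithelium are moved by this scale without any change of their own level.

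**Figure D4:**
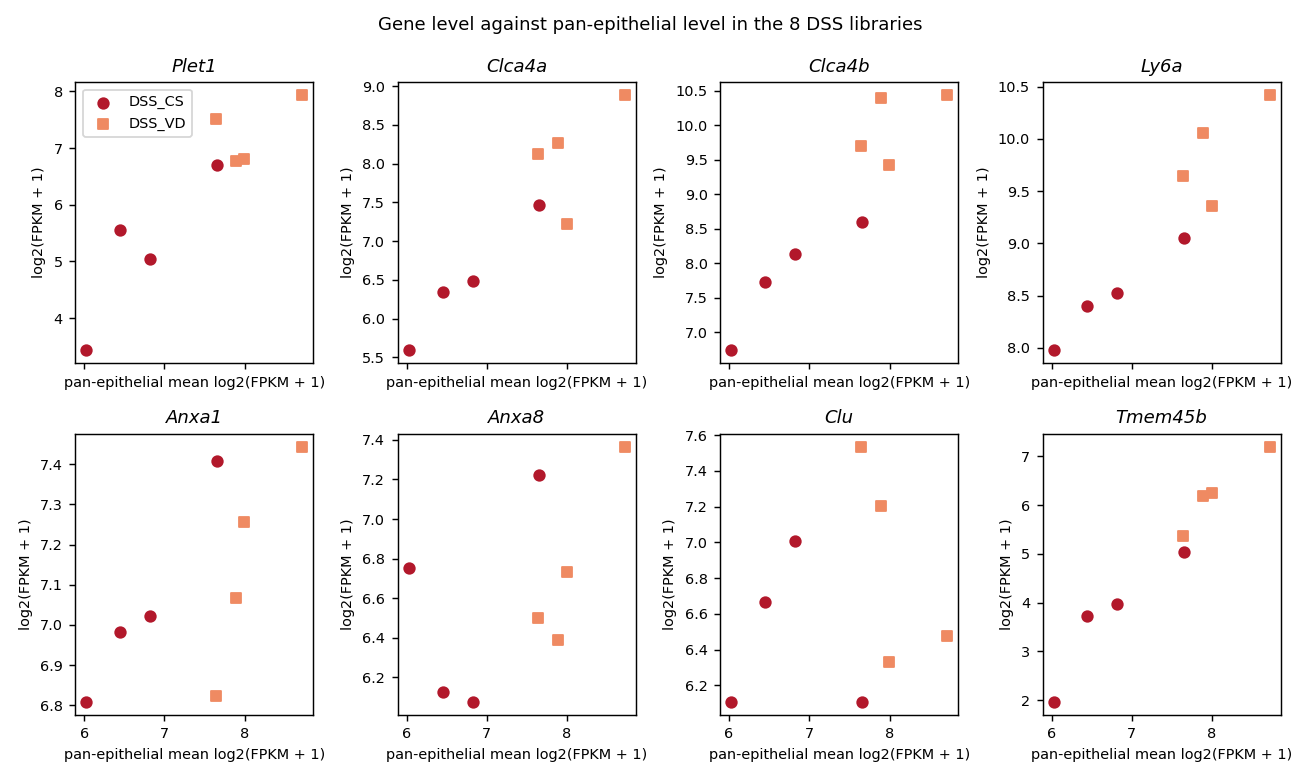
Level of each gene (vertical axis, log2(FPKM + 1)) against the mean log2(FPKM + 1) of 10 pan-epithelial genes (horizontal axis) in the 4 DSS_CS and 4 DSS_VD libraries. Plet1, Clca4a, Clca4b, Ly6a and Tmem45b climb with the pan-epithelial mean. The lowest library for each of them, and for Anxa1 and Clu, is DSS_CS replicate 2, which also has the lowest pan-epithelial mean, 6.03.

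Within the DSS groups 3 libraries held the highest or lowest value of most of the genes. DSS_CS replicate 1 was highest for 7 of the 8 genes, all but Clu, and replicate 2 lowest for 7 of the 8, all but Anxa8. DSS_VD replicate 2 was highest for 7 of the 8, all but Clu. These 3 libraries also had the highest, lowest and highest pan-epithelial means of their groups, at 7.65, 6.03 and 8.72. The lowest DSS_VD values were spread over replicates 1, 3 and 4. Not all pairs of genes moved together. With group means taken out, Pearson r was 0.838 for Anxa1 and Tmem45b but -0.18 for Clca4b and Anxa8. Plet1 varied 10.5 times from lowest to highest within DSS_CS and Tmem45b 11.0 times, against 2.25 and 3.60 times within DSS_VD. With group means taken out, Pearson r with the pan-epithelial mean was 0.919 for Tmem45b, 0.831 for Anxa1, 0.742 for Plet1, 0.607 for Clca4a, 0.548 for Clca4b, 0.517 for Ly6a, 0.453 for Anxa8 and -0.15 for Clu, over 16 libraries that share these groups and with no test.

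By likeness over the 16 libraries among 8376 genes, Plet1 was nearest to Mfsd2a (Pearson r of 0.990), a lipid transporter, Sprr2h (0.988), a small proline-rich protein of barrier epithelia, and Trim10 (0.987). Mfsd2a averaged 7.37 FPKM in DSS_CS and 23.6 FPKM in DSS_VD, against 0.754 FPKM in CON_CS and 0.606 FPKM in CON_VD. Clca4b was nearest to Sh3kbp1 (0.963), Aldh1a3 (0.957), an enzyme that makes retinoic acid, and Ly6c1 (0.957). Aldh1a3 was also nearest to Anxa8 (0.938), followed by Myof (0.924) and Xdh (0.924). Aldh1a3 averaged 40.0 FPKM in DSS_CS and 83.1 FPKM in DSS_VD, against 12.1 FPKM in CON_CS and 2.21 FPKM in CON_VD, the same order of groups as Clca4b. Anxa1 was nearest to Emp1 (0.965), Rab32 (0.963) and Capg (0.953), and Ly6a to Dbnl (0.947), Clca4c-ps (0.932) and Psmb9 (0.926), a subunit of the immunoproteasome. Clca4a was nearest to Clca4c-ps (0.952), Casp8 (0.949) and Otud5 (0.938).

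Most other genes of the fetal-like state, from a list drawn up with earlier results known, also rose in both birth groups. Of 12 tested fetal-like genes, 8 rose and 3 fell in CS mice, where 34.4% of all tested genes rose and 25.9% fell. In VD mice 9 rose and 1 fell, where 24% of all tested genes rose. Between the DSS groups 2 were higher and 1 lower in DSS_CS, where 13.4% of all tested genes were called. The median DSS_CS minus DSS_VD difference of the 12 genes was 0.23 on the log2 scale, against 0.06 for all tested genes. The difference was above 0 for 6 of the 12 and below 0 for 6. Mean Areg was lower in DSS_CS, at 10.9 ± 1.98 FPKM, than in DSS_VD, at 21.0 ± 5.44 FPKM (SD, n = 4 each). Ereg, a ligand of the EGF receptor, averaged 168 ± 81.5 FPKM in DSS_CS and 61.3 ± 27.2 FPKM in DSS_VD, against 1.90 ± 1.08 FPKM in CON_CS and 2.73 ± 0.777 FPKM in CON_VD (SD, n = 4 each). Spp1, a secreted matrix protein, was higher in DSS_CS than in DSS_VD, at 11.3 ± 3.93 and 2.94 ± 1.65 FPKM (SD, n = 4 each; log2 difference 1.68 ± 0.32, limma, adjusted p = 0.0313). Il33, an alarm cytokine of barrier and stromal cells, rose by 3.87 ± 0.22 in CS mice and by 3.55 ± 0.27 in VD mice. These are whole colon values, and the part of epithelial and other cells in them was not tested. In DSS_CS against DSS_VD the median log2 difference was -1.38 for pan-epithelial genes. It was 0.79 for fibroblast, 1.66 for neutrophil and 0.44 for macrophage markers.

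Of 14 tested wound-edge genes, 8 rose and 2 fell in CS mice, where 34.4% of all tested genes rose and 25.9% fell. In VD mice 9 of 13 tested rose and none fell, where 24% of all tested genes rose. The 9 include Mmp10 and Sprr2h, which averaged 0.438 and 0.0567 FPKM in CON_VD, so the filter set their direction. Between the DSS groups 1 of 14, Mmp10, was higher in DSS_CS and 1, Hbegf, lower, where 13.4% of all tested genes were called. The median log2 difference was -0.73, against 0.06 for all tested genes. The difference of responses was above 0 at the threshold for 1 and below 0 for 4 of 14. Of all tested genes, 6.55% passed below 0. Hbegf, a ligand of the EGF receptor, averaged 3.38 ± 1.36 FPKM in DSS_CS and 8.55 ± 3.14 FPKM in DSS_VD (SD, n = 4 each; log2 difference -1.11 ± 0.29, limma, adjusted p = 0.0418). Mmp10, a matrix-cutting enzyme of migrating keratinocytes, averaged 182 ± 52.9 FPKM in DSS_CS and 63.2 ± 23.6 FPKM in DSS_VD, against 0.548 ± 0.265 FPKM in CON_CS and 0.438 ± 0.142 FPKM in CON_VD (SD, n = 4 each). It was higher in DSS_CS than in DSS_VD by 1.54 ± 0.31 (limma, adjusted p = 0.0313). Cells other than epithelium also enter these whole colon values, and their part was not tested. Itgb6, an integrin subunit of wound epithelium, had a lower DSS response in CS than in VD mice (difference of responses -1.65 ± 0.37, adjusted p = 0.0155), with 4.31 ± 2.37 FPKM in DSS_CS and 10.5 ± 3.97 FPKM in DSS_VD, against 5.63 ± 0.450 FPKM in CON_CS and 3.68 ± 0.368 FPKM in CON_VD (SD, n = 4 each).

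Of 21 tested YAP and TAZ target genes, 15 rose and 2 fell in CS mice, where 34.4% of all tested genes rose and 25.9% fell. In VD mice 10 of 19 tested rose and 3 fell, where 24% of all tested genes rose. In DSS_CS against DSS_VD, 7 of 21 were higher and 1 lower, where 13.4% of all tested genes were called in either direction. Ccdc80, a matrix protein, led with 55.4 ± 8.89 FPKM in DSS_CS and 25.6 ± 6.03 FPKM in DSS_VD (SD, n = 4 each; log2 difference 1.10 ± 0.20, limma, adjusted p = 0.0313). Fibroblasts also express targets of these factors, and 10 fibroblast markers summed to 1271 to 1691 FPKM in DSS_CS and 474 to 1021 FPKM in DSS_VD, against 255 to 293 FPKM in CON_CS and 225 to 250.4 FPKM in CON_VD. Their part in the target gene counts was not tested. Crypt stem cell genes moved the other way under DSS: of 9 tested, 1 rose and 6 fell in CS mice, where 25.9% of all tested genes fell. In VD mice none of these stem cell genes rose and 7 fell, where 40.9% of all tested genes were called in either direction and 24% as higher. Ascl2, a factor that maintains these cells, averaged 0.214 ± 0.0806 FPKM in DSS_CS and 0.383 ± 0.0733 FPKM in DSS_VD, against 2.42 ± 0.174 FPKM in CON_CS and 2.93 ± 0.634 FPKM in CON_VD (SD, n = 4 each).

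The calls of list genes between the birth groups rested on few libraries, a check chosen after seeing the data. Without the 3 libraries with Pbsn, 0 genes of any list were called in DSS_CS against DSS_VD. The log2 differences were then 1.29 ± 0.35 for Spp1 (limma, adjusted p = 0.123), 1.21 ± 0.36 for Mmp10 (adjusted p = 0.138), 0.92 ± 0.25 for Ccdc80 (adjusted p = 0.121) and -0.89 ± 0.37 for Hbegf (adjusted p = 0.218). Fpr1, Fpr2, Ly6g, Spp1, Mmp10, Ccdc80 and Hbegf also lost the call without DSS_VD replicate 1 or 2 or DSS_CS replicate 2 or 3. Fpr2, Mmp10 and Hbegf lost it without DSS_CS replicate 4, and Fpr2 and Hbegf without DSS_VD replicate 4. Each of the 7 kept its direction in all of these fits. Krt14 lost its call without CON_VD replicate 1, 2 or 3 and was under the filter when a CON_CS library was left out. Itgb6 passed with any 1 library left out and missed the threshold without the 3 libraries with Pbsn (-1.53 ± 0.47, adjusted p = 0.0800).

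For DSS against water in CS mice, the fit without the 3 libraries with Pbsn has 5 libraries and tests fewer genes, with Plet1, Fpr1, Fpr2, Mmp10 and Ascl2 under the filter. There 7 of 11 fetal-like genes rose and 1 fell, 3 of 11 wound-edge genes rose and 0 fell, and 10 of 18 YAP and TAZ targets rose and 2 fell. Of 8 crypt stem cell genes, 1 rose and 4 fell.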

How the data were processed

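The labels' protocols name Trizol for total RNA. The authors deposited 1 table of FPKM for 39328 genes and 16 libraries. The submitters' processing notes name cutadapt, FastQC and GRCm38, while the aligner, quantifier, annotation and strandedness are not given here. FPKM of 16959 genes with every value under 0.3 held no steps of whole reads, so depth is unknown and no interval from counts is given. Symbols came from a table of gene names (39181 of 39328 identifiers matched), positions from GENCODE M21 and promoters from RefSeq (GRCm38.p6).

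Values of log2(FPKM + 1) were fitted in R 4.3.3 with limma 3.58.1, using the 8 libraries of each pair of groups, or all 16 for the difference of DSS responses, an intensity trend in the variance prior, and Benjamini-Hochberg adjustment over genes with at least 1 FPKM in at least 4 fitted libraries. This scale understates the changes of low genes, such as Plet1 on water. The pan-epithelial mean was compared by an exact permutation test in scipy 1.17.1, whose smallest two-sided p with 4 against 4 libraries is 0.0286. Coding sequences were aligned with biopython 1.88, and figures drawn with matplotlib 3.10.9. The fitting code was tested on simulated data.

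All 8 genes are described whatever their values. From each list up to 3 genes past the threshold with the largest difference are named, and for each of the 8 the 3 genes of highest correlation, which leave out predicted genes and receptor segments and need a mean of at least 5 FPKM in 1 group. Of these, 1 gene is not reported here. The 8 genes, the lists and the alternatives were chosen with earlier results of these data known, and the B cell follicle list after the Clu values were seen. Ly6g and the genes of other families were named because family members may all be named. Alternatives were a pseudocount of 0.1, no filter, other scalings, 1 fit on all 4 groups, a replicate block, leaving out libraries, and levels relative to pan-epithelial genes.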

Additional observations from a re-analysis of the deposited data

Results flagged for a closer look

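The DSS response differed between birth groups at the threshold, in the fit over all 16 libraries, for 5 of the 8 genes. The difference of responses (CS minus VD, log2) was -4.64 for Clca4b, -3.09 for Tmem45b, -2.52 for Anxa8, -2.01 for Clca4a and -1.95 for Ly6a. Clca4b rose in both birth groups, by 2.67 in CS and 7.32 in VD mice, and Anxa8 by 1.55 and 4.07. Tmem45b fell by 2.63 in CS mice, with 0.46 in VD mice short of the threshold. Clca4a and Ly6a rose in VD mice, by 1.90 and 2.25, and their differences in CS mice, -0.11 and 0.30, did not pass. Of 23 other settings, the difference of responses kept its call in 3 for Clca4a, 14 for Ly6a and 22 for Tmem45b. It kept the call in all 23 for Clca4b and Anxa8. Among the 32 sets of 4 libraries (8 genes in 4 groups), none held a library far enough from the other 3 to pass Dixon's limit of 0.829.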

How the results depend on the processing

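Numbers of the 8 genes called held for DSS in VD mice (7 in each setting counted, while relative to pan-epithelial genes Tmem45b, at 1.05, passed as well) and moved most for CS against VD. Under DSS, CS against VD gave 1923 called genes and 4 of the 8. Without a filter it gave 3 and 0 of the 8, with 1 fit on all 4 groups 3855 and 5, and without the 3 libraries with Pbsn 6 and 0. On water, 54 genes and 1 of the 8 became 3 and 0 without a filter, 77 and 2 with 1 fit on all 4 groups, and 15 and 0 without CON_CS replicate 1, the library with Pbsn. Without the 3 libraries with Pbsn, DSS in CS mice gave 5217 genes, against 8666, with 4 of the 8 called against 6. For the difference of responses, 2015 genes and 5 of the 8 became 1042 and 3 without a filter and 637 and 2 without those libraries. Fewer libraries enter these fits; otherwise the cause was not tested.

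Leaving out 1 library gave 0 (without DSS_VD replicate 1, with 4264 genes at an unadjusted p under 0.05 in limma) to 2054 genes and 0 to 5 of the 8 for CS against VD under DSS. On water it gave 0 (without CON_VD replicate 3, with 1780 genes at an unadjusted p under 0.05) to 275 genes and 0 to 2 of the 8. For the difference of responses it gave 1056 to 2515 genes and 3 to 6 of the 8. The replicate block left 2 genes and 0 of the 8 for CS against VD under DSS, and 7 genes and 1 of the 8 on water, but deviations of libraries with the same number correlated at only -0.302 to 0.137, so the numbers do not pair the samples.

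Some small differences changed sign. In CS against VD under DSS, Anxa8 was 0.24 without the libraries with Pbsn, and leaving out 1 library gave -0.21 to 0.0075 for Anxa1 and -0.43 to 0.0033 for Anxa8. In DSS_CS against CON_CS, Clca4a was 0.16 without the libraries with Pbsn and -0.44 to 0.19 with 1 library left out. Relative to pan-epithelial genes, CS against VD under DSS was 1.23 for Anxa1, 1.12 for Anxa8 and 0.91 for Clu. On the same scale DSS_CS against CON_CS was 1.85 for Clca4a, and the difference of responses was 0.92 for Anxa1. That scale raises every gene in these comparisons, by as much as the pan-epithelial mean was lower. Of the 671 alternative values of single genes, 577 kept direction and side of the threshold, 75 lost the threshold, 8 gained it and 11 changed sign. TPM rescaling gave 27 genes higher and 18 lower on water, and median-of-ratios scaling 23 and 46, against 24 and 30, and the first gave 588 and 924 for the difference of responses, against 1017 and 998. Median-of-ratios scaling moved the median of all genes by -0.10 in DSS_CS against CON_CS. Without read counts, no limit of detection can be given for low values such as Plet1 on water.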
